A study of Mus musculus with 7 samples.

Results

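The structural maintenance of chromosomes (SMC) family was read in RNA-seq libraries of mouse lung regulatory T (Treg) cells. The family was taken as 7 genes, Smc1a, Smc2, Smc3, Smc4, Smc5, Smc6 and Smchd1, found by symbol among the 19736 gene symbols of each library, and all 7 were among the 14582 genes past the filter on low values described below. The family was chosen by the measured difference of Smc6 between the sorted groups, so the members' differences are given as a description without a test. Cells were sorted from whole lung digests by the EGFP reporter of Foxp3, the Treg transcription factor, and by surface CCR6, a chemokine receptor, which gave 3 CCR6+ and 4 CCR6– libraries. All 7 libraries share the Il4raR576 genotype (a variant of the alpha chain of the IL-4 receptor), the Foxp3EGFP reporter and female sex, at 5 to 7 weeks of age. All mice received 100 µg of ovalbumin by injection, a boost 2 weeks later and, from day 29, an aerosol of 1% ovalbumin for 30 minutes daily over 3 days, and were killed on day 32. No label ties a library to a mouse or states how many mice were pooled, so p-values here describe the spread between libraries, which may be technical.

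SMC proteins are long coiled-coil ATPases that pair through a hinge and clasp DNA between their ATPase heads. SMC1A and SMC3 form cohesin, which holds sister chromatids together and extrudes chromatin loops. SMC2 and SMC4 form the core of both condensins, which compact chromosomes in mitosis. SMC5 and SMC6 form a complex known for DNA repair and for restraining extrachromosomal DNA. SMCHD1 is a noncanonical member with an ATPase domain of another kind, known for gene silencing on the inactive X chromosome.

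The libraries held 11607780 to 47261246 reads, with CCR6+ replicate 2 the shallowest, and each member was covered by at least 948 reads in every library. All 8 T cell and Treg markers, among them Foxp3, Cd3e and Il2ra, were above 0 in every library. Their summed level was 97822 in CCR6+ replicate 2, while the other 6 libraries ranged from 153199 to 263383 normalised counts. Markers of other cells were highest in that same library for 3 of 4 lists. CCR6+ replicate 1 also lay above every CCR6– library in epithelial (11588), B cell (5919) and macrophage and monocyte markers (18098). It did not in endothelial and stromal markers (6240). CCR6+ replicate 3 lay above every CCR6– library only in endothelial and stromal markers (9213). The summed level of 10 epithelial markers ranged from 3546 to 79028 in CCR6+ and from 1834 to 9556 in CCR6– libraries. That of 10 endothelial and stromal markers ranged from 6240 to 54718 and from 5522 to 8387, that of 10 macrophage and monocyte markers from 9204 to 77231 and from 1019 to 14790, and that of 8 B cell markers from 1441 to 5919 and from 532 to 3803. Pecam1 made up most of the endothelial and stromal sum in CCR6– libraries, at 5317 to 6648. In CCR6+ libraries Pecam1 stood at 5480 to 12479. Every marker of these 4 lists past the filter had a positive log2 difference (CCR6+ minus CCR6–). The list medians were 1.84 to 2.49, against 0.097 over all genes. Vwf, Pdgfra, Pax5, Adgre1, Mrc1 and Marco were at 0 in at least 1 library. The part of these cells in the members' differences was not tested. In such bulk libraries, fewer cells of a type and less RNA per cell cannot be told apart.

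The starts of Smc6 and Smc1a each face another gene, and these stretches are shown because the neighbours' levels can be set beside those of the members. The windows before Smc2 and Smc3 are shown for comparison, as the condensin and the other cohesin gene. The sequences are from RefSeq on GRCm38.p6, the mm10 assembly, which had an entry for 6 of the 7 members. All are on the plus strand and hold no annotated exon, and capitals mark motif matches.
Gen1 to Smc6, chr12:11265808-11265885: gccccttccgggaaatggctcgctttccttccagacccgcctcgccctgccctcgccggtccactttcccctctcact
Ribc1 to Smc1a, chrX:152016296-152016427: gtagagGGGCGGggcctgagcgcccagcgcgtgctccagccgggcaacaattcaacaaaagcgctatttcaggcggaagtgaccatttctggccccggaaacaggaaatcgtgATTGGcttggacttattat
Smc2, chr4:52438971-52439220: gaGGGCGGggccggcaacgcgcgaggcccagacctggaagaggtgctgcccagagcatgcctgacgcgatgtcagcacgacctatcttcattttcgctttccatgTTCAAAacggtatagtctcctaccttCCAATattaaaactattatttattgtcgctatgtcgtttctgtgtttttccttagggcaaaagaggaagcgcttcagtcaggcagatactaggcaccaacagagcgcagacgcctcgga
Smc3, chr19:53600146-53600395: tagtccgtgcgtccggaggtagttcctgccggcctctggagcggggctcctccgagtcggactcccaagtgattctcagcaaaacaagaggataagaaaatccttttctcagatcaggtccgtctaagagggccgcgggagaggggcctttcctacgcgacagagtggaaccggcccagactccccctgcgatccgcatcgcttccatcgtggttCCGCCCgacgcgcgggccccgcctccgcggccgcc

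The motifs searched, on both strands, were the CCAAT box (CCAAT), the CHR element of cell cycle genes (TTTGAA), the GC box (GGGCGG) and a pair of E2F forms (TTTCCCGC and TTTGGCGC). The window before Smc2 held a GC box, a CHR element and a CCAAT box, beginning 248, 145 and 119 bases before its start. The stretch before Smc1a held a GC box and a CCAAT box, and that before Smc3 a GC box, while the printed stretch between Gen1 and Smc6, much shorter than a promoter window, held none of these letters. Over full windows of 250 bases before and 50 after the start, Smc6 and Smchd1 held a CHR element and a GC box, and Smc1a held the first E2F form besides its GC and CCAAT boxes. Of 32851 RefSeq promoter windows of this length, 37.4% held the CCAAT box, 17.9% the CHR element, 35.7% the GC box, 1.07% the first E2F form and 0.514% the second. These are matches of letters and not binding sites.

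All 7 members had a lower mean in CCR6+ than in CCR6– cells, and for 6 of them, all but Smchd1, every CCR6+ library lay below every CCR6– library. Over all 14582 genes past the filter, 5.53% were lower in this way without overlap, 7.96% were higher without overlap, and 43.1% had a negative log2 difference. The members were chosen with this contrast known, so nothing is read from these counts. The median log2 difference of the members was -0.45, against 0.097 over all genes. Differences are CCR6+ minus CCR6– on the log2(value + 1) scale, with the standard error (SE) of the limma fit over all genes, and a gene passed the filter if 3 or more libraries reached a value of 10. Smc6 and Smc4 had the largest differences, and their partners Smc5 and Smc2 had smaller ones.

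Smc6 had the largest difference of the family. Its normalised counts were 10169, 8557 and 10788 in CCR6+ replicates 1 to 3, and 18630, 19400, 23466 and 27674 in CCR6– replicates 1 to 4. The groups stood far apart, as the lowest CCR6– library lay above the highest CCR6+ library by more than the whole range of the CCR6+ group. The means were 9838 ± 1152 (SD, n = 3) and 22293 ± 4168 (SD, n = 4), a log2 difference of -1.17 (SE 0.21), so that CCR6+ cells held 44.1% of the CCR6– mean. Without CCR6+ replicate 2 the difference was -1.07. Smc6 lies on chromosome 12 from 11265886 to 11319785 on the plus strand and is annotated as protein coding with 30 exonic blocks. 

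Smc5, the other SMC subunit of that complex, stood at 2589, 2156 and 2406 normalised counts in CCR6+ and at 3251, 3048, 3086 and 3657 in CCR6– replicates. The groups did not overlap, with CCR6+ replicate 2 the lowest and CCR6– replicate 4 the highest, as for Smc6. The log2 difference of Smc5 was -0.45 (SE 0.16). Smc5 lies on chromosome 19 from 23206451 to 23273897 on the minus strand.

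Per kb of the longest coding transcript, Smc6 exceeded Smc5 in every library, and by less in CCR6+ cells. The ratio was 3.98, 4.03 and 4.55 in CCR6+ replicates 1 to 3, and 5.81, 6.46, 7.71 and 7.68 in CCR6– replicates 1 to 4. This ratio does not depend on how a library was scaled, and its groups did not overlap. It rests on the contrast that chose Smc6 and is a description.

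The gene that faces Smc6 was read beside it. Gen1, which encodes a nuclease that resolves Holliday junctions, lies on the opposite strand, 84 bases before Smc6 in GENCODE, with the 78 bases printed above between the RefSeq starts. Its normalised counts were 235, 462 and 361 in CCR6+ and 327, 626, 370 and 302 in CCR6– replicates. The Gen1 groups overlapped, with a log2 difference of -0.20 (SE 0.35, limma adjusted p = 0.795). Whether Gen1 and Smc6 differ in their change was not tested. On the other side, Vsnl1, a neuronal calcium sensor gene on the minus strand, has its 3′ end 5456 bases after Smc6 and did not pass the filter.

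**Figure D1:**
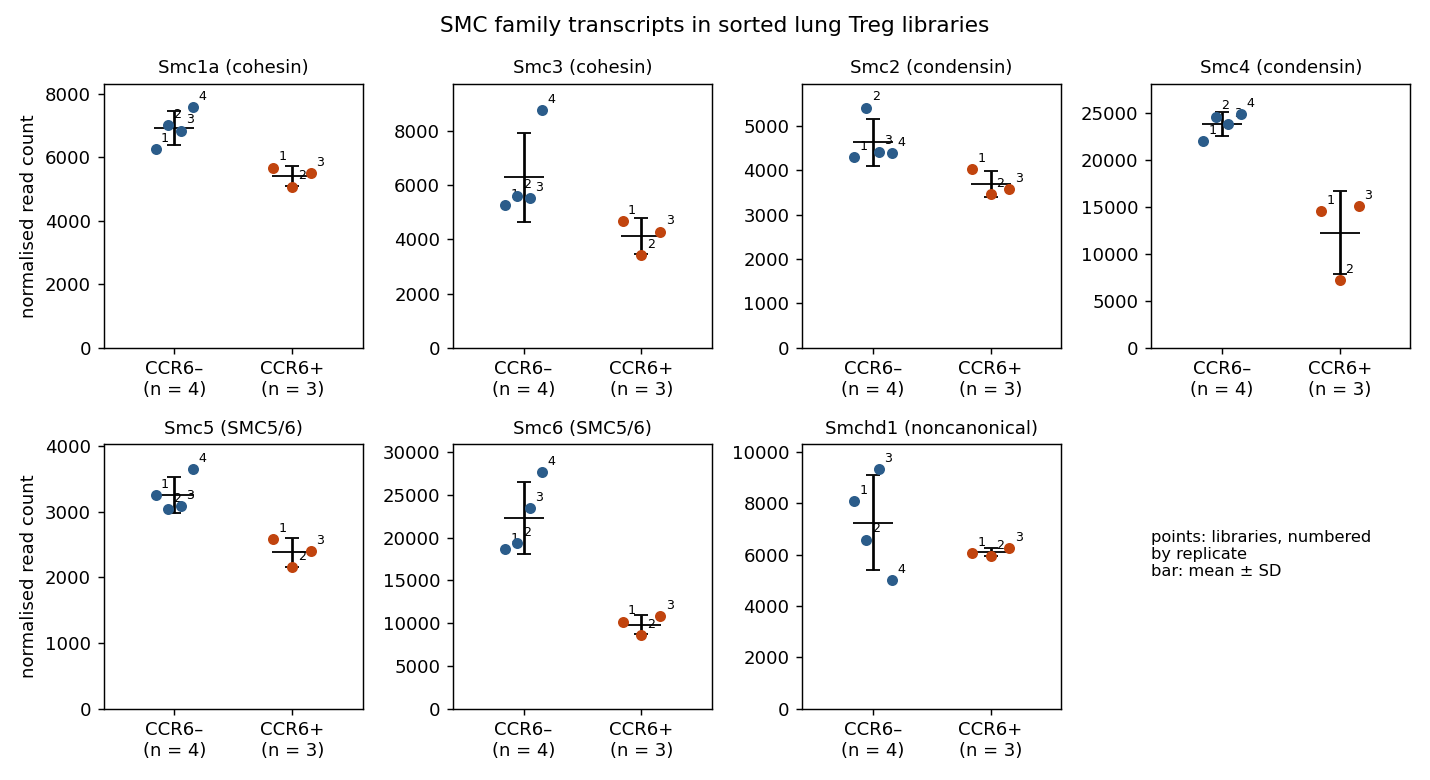
Normalised read count (vertical axis, from 0) of each SMC family member in the 4 CCR6– and 3 CCR6+ libraries. Points are libraries numbered by replicate and bars give the mean ± SD; in 6 panels all CCR6+ points lie below all CCR6– points, and in the Smchd1 panel they overlap.

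Smc4, the more abundant of the condensin ATPase genes, was the other member with a difference beyond 1 on the log2 scale. Its normalised counts were 14568, 7206 and 15089 in CCR6+ and 22009, 24666, 23886 and 24932 in CCR6– replicates. The CCR6– libraries lay close together, and CCR6+ replicate 2 lay far below the other CCR6+ libraries. The means were 12288 ± 4408 (SD, n = 3) and 23873 ± 1320 (SD, n = 4), a log2 difference of -1.03 (SE 0.29). Without CCR6+ replicate 2 it was -0.69, still with no overlap. Smc4 lies on chromosome 3 from 69004738 to 69034623 on the plus strand, and the microRNA genes Mir15b and Mir16-2 lie inside it on the same strand.

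Smc2, the partner of SMC4 in condensin, stood at 4021, 3473 and 3571 normalised counts in CCR6+ and at 4296, 5414, 4424 and 4398 in CCR6– replicates. The groups did not overlap, but CCR6+ replicate 1 and CCR6– replicate 1 lay close. The log2 difference of Smc2 was -0.33 (SE 0.16). The ratio of Smc4 to Smc2 per kb of transcript was 4.54, 2.60 and 5.29 in CCR6+ and 6.41, 5.70, 6.76 and 7.10 in CCR6– replicates, again without overlap. Smc2 lies on chromosome 4 from 52439243 to 52488260 on the plus strand.

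Both cohesin ATPase genes were lower in CCR6+ cells by a smaller margin. Smc3 stood at 4685, 3410 and 4291 normalised counts in CCR6+ and at 5255, 5616, 5514 and 8755 in CCR6– replicates. CCR6– replicate 4 stood apart from the other 3, and the log2 difference of -0.59 (SE 0.25) was -0.42 without it. Smc1a stood at 5674, 5075 and 5510 in CCR6+ and at 6250, 7021, 6842 and 7579 in CCR6– replicates. Its log2 difference was -0.35 (SE 0.15), with a gap between the groups of about the size of the range within CCR6+. 

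In contrast with the other complexes, the ratio of Smc3 to Smc1a per kb of transcript overlapped between the groups, at 0.798, 0.650 and 0.753 in CCR6+ and 0.813, 0.774, 0.779 and 1.12 in CCR6– replicates. Smc3 lies on chromosome 19 from 53600398 to 53645833 and Smc1a on chromosome X from 152016428 to 152062694, both on the plus strand. Ribc1, which faces Smc1a across the stretch printed above, was low, at 57.6 ± 23.4 (SD, n = 3) in CCR6+ and 32.6 ± 11.3 (SD, n = 4) in CCR6– libraries, and its groups overlapped.

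**Figure D2:**
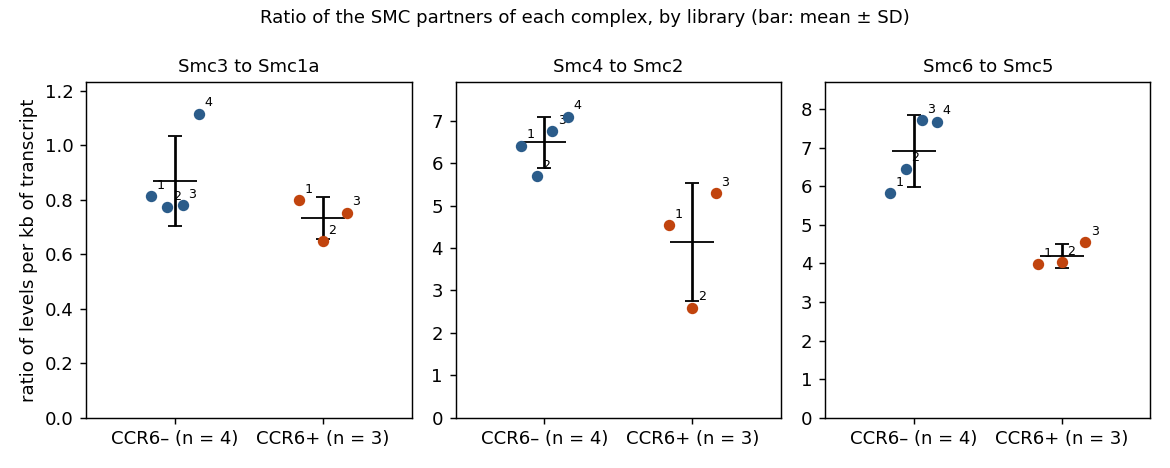
Ratio of the levels per kb of transcript of the SMC pair of cohesin (Smc3 to Smc1a), condensin (Smc4 to Smc2) and SMC5/6 (Smc6 to Smc5), on a vertical axis from 0. Points are libraries numbered by replicate and bars give the mean ± SD; the groups are separate for condensin and SMC5/6 and overlap for cohesin.

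Smchd1 was the member whose groups overlapped, through CCR6– replicate 4. Its normalised counts were 6043, 5948 and 6260 in CCR6+ and 8077, 6583, 9312 and 5004 in CCR6– replicates. The CCR6+ libraries were nearly equal, and the CCR6– libraries lay on both sides of them, with replicate 4 the lowest of all 7. The log2 difference was -0.21 (SE 0.24). Without CCR6– replicate 4 it was -0.38, with no overlap, and without CCR6– replicate 3 it was -0.081. CCR6– replicate 4, the lowest in Smchd1, was the highest library in Smc1a, Smc3, Smc4, Smc5 and Smc6. Smchd1 lies on chromosome 17 from 71344489 to 71475343 on the minus strand, where other genes are annotated within its bounds without sharing its exonic bases.

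Levels can be compared between members per kb of the longest coding transcript. In CCR6– libraries Smc4 came first at 5531 ± 306 (SD, n = 4), above Smc6 at 3979 ± 744 with no overlap. Smc1a at 1476 ± 117, Smc3 at 1296 ± 341, Smchd1 at 1027 ± 264 and Smc2 at 857 ± 97 followed, and each overlapped with the next. Smc5 was the lowest, at 574 ± 49, below every library of Smc2.

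In CCR6+ libraries the order was Smc4 at 2847 ± 1021 (SD, n = 3), Smc6 at 1756 ± 206, Smc1a at 1155 ± 66, Smchd1 at 863 ± 23, Smc3 at 851 ± 135, Smc2 at 683 ± 54 and Smc5 at 419 ± 38. Here Smc4 and Smc6 overlapped, as did Smchd1 with Smc3 and Smc3 with Smc2. Smc6 stood above Smc1a without overlap in both groups. Over the union of all annotated exons, which is much longer than that transcript for Smc6 and Smchd1, Smchd1 had the lowest level in both groups, and in CCR6+ Smc1a stood above Smc6. Smc4 stayed first in both groups.

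Partner genes of the members were examined as a list of 37. Besides other subunits and recruiting factors of the complexes, it held 13 cohesin regulators. It also held 4 genes for a partner of SMCHD1 and for a separate break repair complex. Of the 37 genes, 36 were found and 34 passed the filter. Limma called 0 of these 34 at a Benjamini-Hochberg adjusted p under 0.05 over all genes, where it called 0% of all genes as lower and 0% as higher. At an unadjusted p under 0.05, 5 were lower and 0 higher, against 2.35% of all genes lower and 8.22% higher. EdgeR on the recovered reads called 0 of them, and of all genes 0% as lower and 0.0137% as higher. DESeq2 called 1, Ncaph (log2 difference -0.61, DESeq2 adjusted p = 0.00321). It called 1.01% as lower and 4.03% as higher of the 13487 genes to which it gave an adjusted p. The other 1095 genes past the filter had none. Without CCR6+ replicate 2, 33 partner genes passed the filter and DESeq2 called 0 of them. It then called 0.596% as lower and 0.769% as higher of the 13256 genes with an adjusted p. By direction, 31 of the 34 had a negative log2 difference, against 43.1% of all genes, and the median of the 34 was -0.27. The median over all genes was 0.097, and -0.039 over the 10864 genes with a mean of at least 100. The list was chosen with earlier results of these data known, so nothing is read from the count of directions.

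Within cohesin, Rad21, the kleisin subunit that closes the ring, stood at 3219, 2300 and 2984 normalised counts in CCR6+ and at 3819, 3904, 3719 and 4435 in CCR6– replicates. Its groups did not overlap, and the log2 difference of -0.50 (SE 0.18, limma adjusted p = 0.458) lay near that of Smc3. The alternative subunits Stag1 and Stag2 had log2 differences of -0.14 and -0.24 with groups that overlapped. The meiotic genes of cohesin were low. Stag3 stood at 137 ± 52 (SD, n = 3) and 93.9 ± 30.5 (SD, n = 4), and Rec8 and Rad21l did not pass the filter. Smc1b, the meiotic SMC gene outside the 7, was at 0, 359 and 73.1 in CCR6+ and at 1.89, 9.94, 35.9 and 0 in CCR6– replicates, highest in CCR6+ replicate 2.

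All 13 genes listed as cohesin regulators had negative log2 differences, from -0.71 to -0.12, where 43.1% of all genes had a negative one. In 3 of these 13 genes the CCR6+ libraries all lay below the CCR6– libraries, against 5.53% of all genes. These genes too were chosen with earlier results of these data known, so nothing is read from these counts. Cdca5, which encodes sororin and protects cohesion, stood at 843 ± 240 against 1355 ± 193, with a log2 difference of -0.71. Sgol1, for the centromere guardian shugoshin, stood at 673 ± 44 against 1035 ± 214, and Ctcf, for the boundary factor, at 6724 ± 1294 against 8465 ± 1125 (SD, n = 3 and n = 4). The loader gene Nipbl and the release factor gene Wapl overlapped, at log2 differences of -0.22 and -0.18.

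In condensin, the kleisin gene of condensin I, Ncaph, stood at 1965, 1827 and 1612 normalised counts in CCR6+ and at 2739, 2925, 2455 and 2820 in CCR6– replicates. Its log2 difference of -0.60 (SE 0.16, limma adjusted p = 0.419) had the smallest p of the 34 genes. The other condensin I genes, Ncapd2 and Ncapg, overlapped between the groups at -0.096 and -0.031. In condensin II, Ncaph2 did not overlap and had a log2 difference of -0.43, while Ncapd3 and Ncapg2 overlapped at -0.44 and -0.56. The 6 condensin genes thus had differences of -0.60 to -0.031, all smaller in size than the -1.03 of Smc4. Without CCR6+ replicate 2 that of Smc4 was -0.69. The difference between Smc4 and these genes was not tested.

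In the SMC5/6 complex, none of the 6 partner genes found had groups without overlap. Over all genes 5.53% were lower and 7.96% higher without overlap, so nothing is read from this count. Nsmce4a, the kleisin, stood at 5211, 3524 and 4678 normalised counts in CCR6+ and at 4913, 6712, 5345 and 6855 in CCR6– replicates, a log2 difference of -0.42. The SUMO ligase gene Nsmce2 and the ubiquitin ligase gene Nsmce1 stood at -0.32 and -0.39, and Ndnl2, the older symbol of Nsmce3, at -0.077. Slf1 and Fam178a, the older symbol of Slf2, which encode factors that recruit the complex, stood at -0.12 and -0.27. The range of the partners, -0.42 to -0.077, did not reach the -1.17 of Smc6. The difference between Smc6 and its partners was not tested.

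Lrif1, for a protein that binds SMCHD1, had a log2 difference of 0.18 with overlap, and CCR6– replicate 4 was again the lowest library, at 778 normalised counts where CCR6– replicates 1 to 3 held 1630 to 1804. Rad50, an SMC-like ATPase of the break repair complex with MRE11 and NBN, overlapped as well, at a log2 difference of -0.26.

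**Figure D3:**
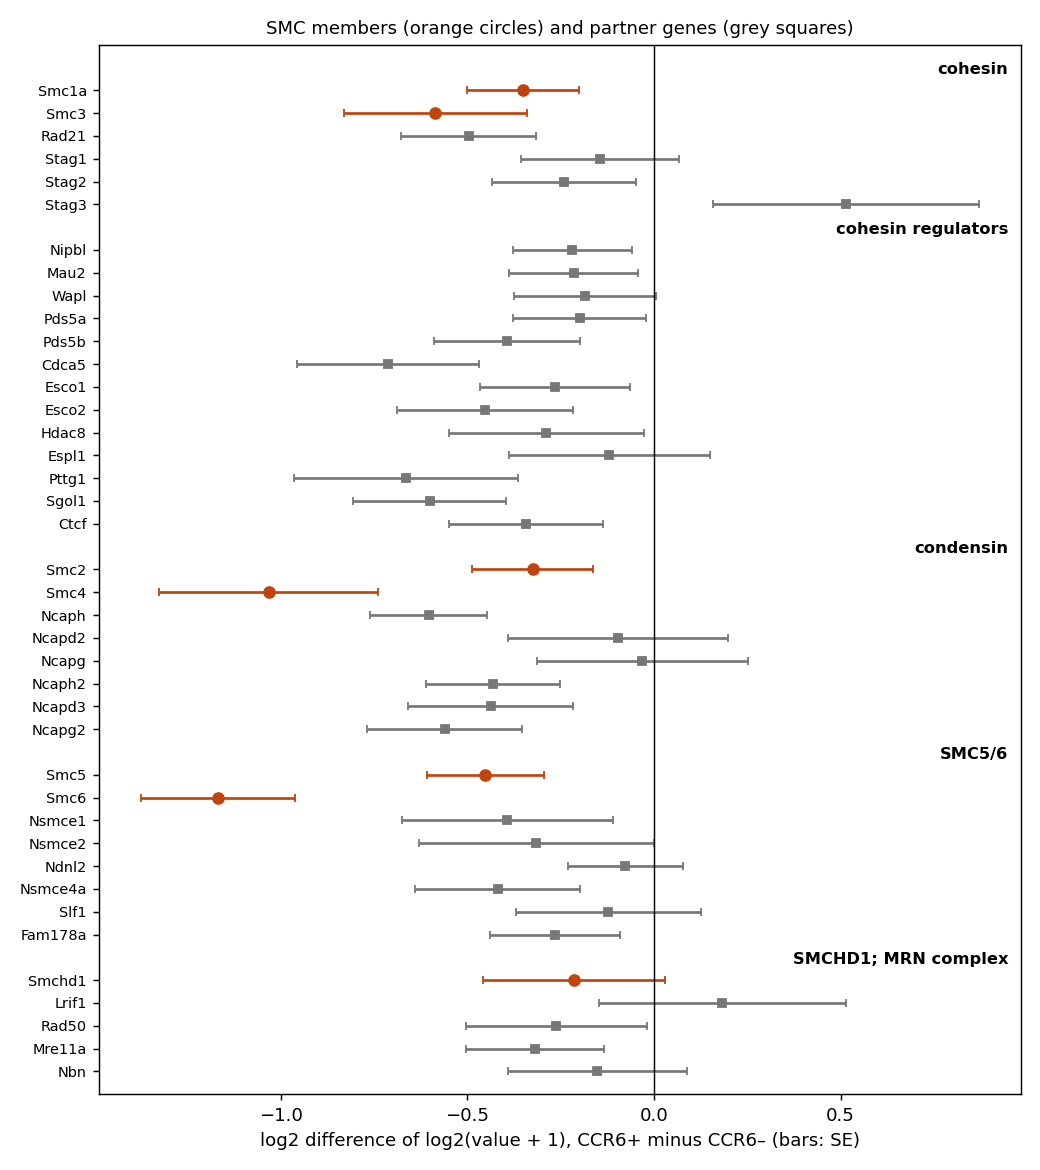
Log2 difference (CCR6+ minus CCR6–, horizontal axis, bars ± SE from limma) of the 7 SMC members, as orange circles, and 33 partner genes past the filter, as grey squares, by complex. Smc6 and Smc4 lie at -1.17 and -1.03, and the partner genes shown lie between -0.71 and 0.51; Smc1b, at 2.35 with an SE of 2.24, is left out for scale.

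**Figure D4:**
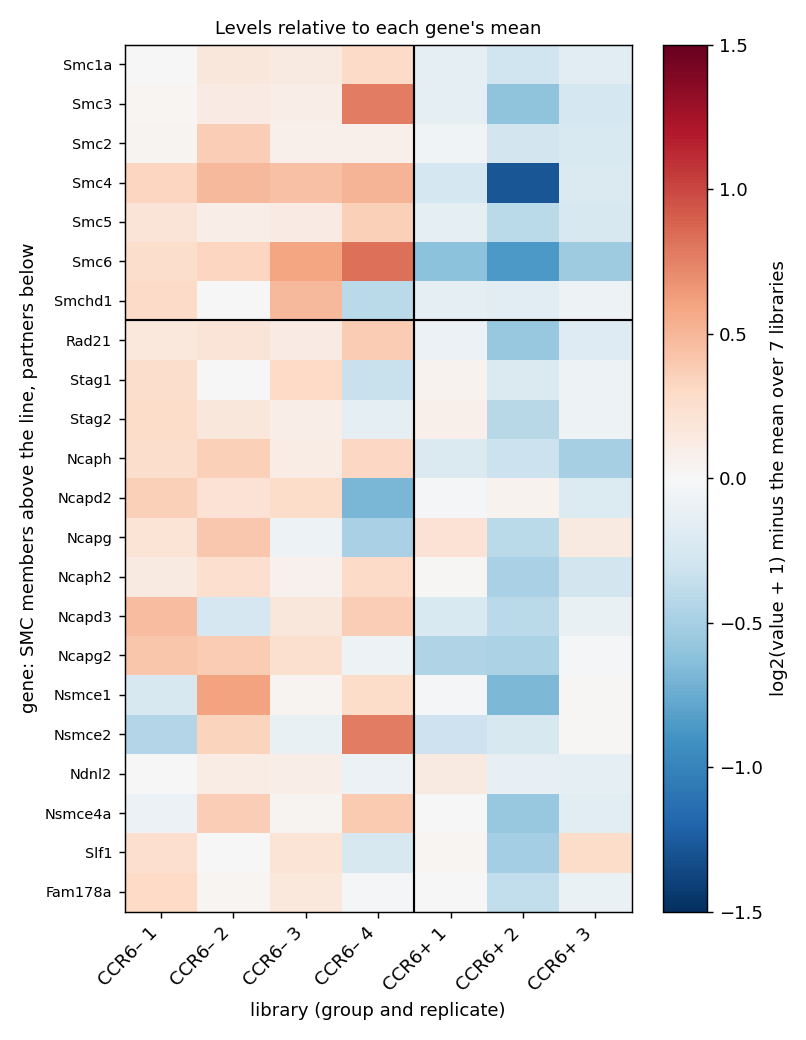
Log2(value + 1) of each gene minus its mean over the 7 libraries (colour), with the members above and the cohesin, condensin and SMC5/6 partner genes below the line. CCR6+ replicate 2 is the lowest library for 6 of the 7 members, with Smc4 at -1.28, and CCR6– replicate 4 is high for Smc3 and Smc6 and low for Smchd1.

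SMC2 and SMC4 serve mitosis, so the members were also set beside 15 mitosis genes. Of these, 14 had a negative log2 difference, 6 were lower without overlap and 0 were called by limma, against 43.1% of all genes with a negative difference and 5.53% lower without overlap. The mean log2 level of the mitosis list was 11.19, 11.04 and 11.17 in CCR6+ and 11.57, 11.96, 11.43 and 11.26 in CCR6– replicates, lower in every CCR6+ library. The list had a median log2 difference of -0.43, and Top2a and Mki67, its genes of highest mean count (not set per length), stood at -0.35 and -0.14 with overlap. All 12 DNA replication genes had negative differences, against 43.1% of all genes, and 10 were lower without overlap, against 5.53%. Their median was -0.51. Limma called 0 genes of this list too. It called 0% of all genes as lower and 0% as higher, so nothing is read from 0 calls in these lists. Both lists were chosen with earlier results of these data known. Mcm6 and Mcm4, of highest mean count over the 7 libraries, stood at -0.36 and -0.46. The differences of this list reached from -0.84, for the ribonucleotide reductase gene Rrm2, to -0.27.

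Relative to the mean of the mitosis list in the same library, the log2 difference of Smc6 was -0.75 (SE 0.33) and that of Smc4 -0.61 (SE 0.32). On this relative scale Smc6 stood at 2.12, 2.03 and 2.22 in CCR6+ and at 2.62, 2.29, 3.09 and 3.49 in CCR6– replicates, without overlap, while Smc4 overlapped. Smc3 and Smc5 lay at -0.16 and -0.031, and Smc1a, Smc2 and Smchd1 turned positive, at 0.070, 0.096 and 0.21.

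Among 10603 named genes with a mean of at least 100, the genes closest to Smc6 over the 7 libraries were Satb1, Cd96, Igf2r, H2-Ob and Ssbp2. Closeness was the root mean square difference of log2 levels after each gene was centred on its own mean, and it was 0.11 for Satb1 and 0.15, 0.15, 0.16 and 0.17 for the others. Satb1, a chromatin organiser of T cells, stood at 8707, 7607 and 9293 normalised counts in CCR6+ and at 18920, 16292, 24315 and 25126 in CCR6– replicates. Of the members, Smc4 ranked 36 and Smc3 81 by this measure, with Smc5 at 305, Smc1a at 697, Smc2 at 1693 and Smchd1 at 4463. These genes share the libraries and their scaling with Smc6, so the measure is a description.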

How the data were processed

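RNA of 3 CCR6+ and 4 CCR6– libraries of sorted lung Treg cells was sequenced after cDNA synthesis with SMART-Seq v4 and library preparation with KAPA Hyper Prep, per the labels' protocols. Each file gives a deposited signal for every gene symbol, which is its read count over a size factor set for the library. This follows from the values, 100% of which are whole multiples of 1 step per library within 0.001 reads. STAR 2.5.1b, HTSeq 0.6.1p1, DESeq2 1.6.3 and mm10 are listed, per the submitters' processing notes, with no role. Which annotation was counted, and whether by strand, is not given in the sources used here, so reads of overlapping or antisense genes may not have been separable. Total reads ranged from 11607780 to 47261246.

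Values were tested as log2(value + 1) with limma 3.58.1 (R 4.3.3), two-sided, without covariates, over the 14582 genes that reached a value of 10 in 3 or more libraries, with Benjamini-Hochberg adjustment at 0.05. Recovered whole reads were tested with edgeR 4.0.16 and DESeq2 1.42.0. Tests were tried on simulated counts. Positions, exons and transcript lengths are from GENCODE M21 (mm10). The members and gene lists were chosen with earlier results of these data known. The text names the members, their partner genes, the 2 mitosis and the 2 replication genes of highest mean count, the neighbours of Smc6 and the 5 genes closest to it. Ribc1, Rrm2 and Pecam1 were added after their values were seen, and marker genes are otherwise summarised by list.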

Additional observations from a re-analysis of the deposited data

Results flagged for a closer look

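The spread among the 4 CCR6– libraries was examined for 56 quantities (members, partner genes, list means and depth). Of the 56, 5 were flagged, where the gap between 1 library and its nearest neighbour took up 0.83 to 0.897 of the range. By chance alone about 5% of quantities would be flagged. Groups of 3 were not examined. Smc2 stood at 5414 normalised counts in CCR6– replicate 2, against 4296 to 4424 in the others. CCR6– replicate 4 held 3 of the 5. In it Smc3 stood at 8755 against 5255 to 5616, Rad50 at 3499 against 1917 to 2155, and Lrif1 at 778 against 1630 to 1804. Rec8 stood at 9.20 in CCR6– replicate 3 against 0.677 to 1.66. It did not pass the filter and had only 1 to 28 reads per library, so these values lie near the floor.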

How the results depend on the processing

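All 7 members kept a negative log2 difference under 17 alternatives each: other pseudocounts, filters and scalings, edgeR, DESeq2, the replicate block and each library left out. The ranges were -1.25 to -0.98 for Smc6, -1.22 to -0.69 for Smc4, -0.54 to -0.36 for Smc5 and -0.38 to -0.068 for Smchd1. Not all of these settings could change the sign. The filters leave a member's difference as it is, and the pseudocounts hardly moved it. The replicate block gave each member the same value as leaving out CCR6– replicate 4. The sign also belongs to the contrast that chose the family, so nothing is read from this count. Quantile normalization moved the median of all genes from 0.097 to -0.084, and Smc1a to -0.21. Relative to the mitosis list, 4 of 7 members were negative, and Smc1a, Smc2 and Smchd1 reversed to 0.070, 0.096 and 0.21. The count of members without overlap was 6 to 7 with a library left out, where the share of all genes lower without overlap was 7.22% to 11.1% against 5.53% with all libraries, and that of negative partner genes 28 to 32. DESeq2 called 1 partner gene lower against 0 by limma. Over all genes, against 0 by limma, 1 gene was called higher with a pseudocount of 0.5 and with TMM scaling, 2 with a pseudocount of 8, when only genes of mean 100 or more were kept, and by edgeR, and 543 higher and 136 lower by DESeq2. Chosen after the data were seen, edgeR and DESeq2 without CCR6+ replicate 2 called 2 and 102 higher and 0 and 79 lower. Deviations of same-numbered libraries from their group means correlated at -0.13, -0.11 and 0.34, and 1 of 6 libraries correlated best with its own number. With groups of 3 and 4 libraries, this cannot decide whether same-numbered libraries share a source. With the replicate block, 0 genes were called, as without it, and 7 members were negative.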
